A study of Mus musculus with 18 samples.

Results

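Transcripts of 9 genes of the NRF2 antioxidant pathway and the metallothionein pair were followed in the livers of 18 mice. The members were the rows of the count table that carry the symbols Nfe2l2, Keap1, Nqo1, Gclc, Gclm, Srxn1, Txnrd1, Mt1 and Mt2, and all 9 were found among the 55487 genes of the table. The livers came from male C57BL/6J mice, bought at 7 weeks of age, that had been injected with adeno-associated virus 1 week before the diets began. In the CON-GFP and FPC-GFP groups the virus carried GFP and in the FPC-LIPA group it carried the human LIPA gene, which encodes lysosomal acid lipase (LAL), in each case behind the hepatocyte promoter TBG. CON-GFP mice ate a purified control diet, and FPC-GFP and FPC-LIPA mice ate a diet rich in fat, fructose, palmitate and cholesterol (FPC) with sugar water, for 16 weeks and with a 4 h fast before collection. Each group had 6 mice with 1 library each, and no group fed the control diet with LIPA was among these libraries.

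NRF2, the protein of Nfe2l2, is a transcription factor that KEAP1 holds in the cytosol and hands over for degradation until electrophiles or oxidants modify KEAP1. Released NRF2 pairs with small MAF proteins at antioxidant response elements (ARE) and induces genes of glutathione synthesis, thioredoxin cycling and quinone detoxification. Metallothioneins are small cysteine-rich proteins that bind zinc and other metals, and in liver their genes respond to zinc through the factor MTF1 at metal response elements (MRE), to glucocorticoids, to fasting and to inflammation.

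Total counts per library lay between 16632146 and 37739301, so that even the least abundant member was read from at least 42 counts (Mt2 in an FPC-LIPA library). Levels are counts per M reads (CPM) scaled by the TMM method of edgeR over all 18 libraries. Genes were called differentially expressed (DE) when they differed 2-fold or more in either direction with an adjusted p under 0.05 in edgeR's quasi-likelihood test, and changes under 2-fold with an adjusted p under 0.05 are given beside them. Endogenous mouse Lipa was between 208 and 406 CPM in all 18 libraries, and human LIPA is not a row of the mouse table, so the transgene was not checked here. FPC-LIPA 36, 37 and 39 stood apart from the other libraries because 6.48%, 8.09% and 8.15% of their counts fell on ribosomal protein genes, against 2.16% to 2.95% in FPC-LIPA 31, 33 and 34 and 1.44% to 2.54% in the GFP libraries. FPC-LIPA 37 carries a suffix in its title and a sample sheet number far above those of the other libraries, which run from 55 to 80. FPC-GFP 11 stood apart for several members, and results that rest on these libraries are given with and without them. Hepatocyte markers were abundant in every library, with a sum over 7 genes of at least 49045 CPM.

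The members lie on 5 chromosomes of GRCm38, and the counts are over the exons of these genes. Nfe2l2 (ENSMUSG00000015839) spans chromosome 2 from 75675513 to 75704641 and Srxn1 spans 152105516 to 152111376 of the same chromosome. Mt2 (94172664 to 94173568) and Mt1 (94179082 to 94180327) are neighbours on chromosome 8, which also holds Nqo1 (107388225 to 107403206). Keap1 (21229730 to 21239361) and Gclc (77754535 to 77794485) lie on chromosome 9, Gclm on chromosome 3 (122245557 to 122270732) and Txnrd1 on chromosome 10 (82833951 to 82897712). Their identifiers in the table are ENSMUSG00000003308 (Keap1), ENSMUSG00000003849 (Nqo1), ENSMUSG00000032350 (Gclc), ENSMUSG00000028124 (Gclm), ENSMUSG00000032802 (Srxn1), ENSMUSG00000020250 (Txnrd1), ENSMUSG00000031765 (Mt1) and ENSMUSG00000031762 (Mt2). Reads shared by Mt1 and Mt2, or by either and a pseudogene, could have been split between rows, since the handling of such reads is not given in the sources used here.

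Promoter windows of RefSeq (GRCm38.p6, 250 bases before to 50 bases after a start) were found for 8 of the 9 members, in 10 windows. The sequences before the start are printed for Mt1 and Mt2, whose levels followed each other, for Srxn1, which had the largest increase with the FPC diet among the members, and for Gclm, which holds matches of both core kinds and had nearly equal means on both diets. Capitals mark matches, on either strand, to the ARE core TGACNNNGC, the MRE core TGCACNC or TGCGCNC, and the longer site TGACTCAGC or TGAGTCAGC of CNC-MAF factors, of which the last was added after the sequences had been seen.
Mt1: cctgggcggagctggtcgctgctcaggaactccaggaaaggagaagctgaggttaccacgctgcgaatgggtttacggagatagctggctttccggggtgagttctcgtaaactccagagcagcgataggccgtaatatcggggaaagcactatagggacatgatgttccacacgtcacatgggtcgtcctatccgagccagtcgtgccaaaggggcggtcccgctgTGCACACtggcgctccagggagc
Mt2: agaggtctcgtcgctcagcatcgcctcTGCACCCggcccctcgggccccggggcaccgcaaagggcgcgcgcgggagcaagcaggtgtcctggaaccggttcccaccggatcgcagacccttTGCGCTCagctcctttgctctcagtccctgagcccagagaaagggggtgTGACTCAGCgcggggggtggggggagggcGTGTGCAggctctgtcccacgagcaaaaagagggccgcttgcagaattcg
Srxn1: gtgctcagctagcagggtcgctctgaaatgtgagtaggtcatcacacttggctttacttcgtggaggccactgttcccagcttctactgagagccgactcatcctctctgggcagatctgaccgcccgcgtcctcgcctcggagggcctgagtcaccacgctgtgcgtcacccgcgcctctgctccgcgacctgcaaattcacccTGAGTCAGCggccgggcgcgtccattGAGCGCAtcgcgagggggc
Gclm: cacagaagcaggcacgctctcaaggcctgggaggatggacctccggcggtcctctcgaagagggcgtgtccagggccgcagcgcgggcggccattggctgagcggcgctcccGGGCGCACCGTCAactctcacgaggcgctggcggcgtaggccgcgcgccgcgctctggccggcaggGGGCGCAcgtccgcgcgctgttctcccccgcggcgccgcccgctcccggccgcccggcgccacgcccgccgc
The lines are chr8:94178839-94179088, chr8:94172368-94172617, chr2:152105274-152105523 and chr3:122245307-122245556, all on the plus strand. Where transcription starts in these livers was not checked, so a match after a RefSeq start need not lie in the transcript. Mt1 held the MRE core at -23, counted from the RefSeq start, and again at 3 and 21 after it. Mt2 held the MRE core at -223, -128 and -50 and after the start at 5, together with the site TGACTCAGC at -79, which is also an ARE core. Srxn1 held TGAGTCAGC at -45, the MRE core at -19 and, after the start, an ARE core at 29. Gclm held an ARE core at -134 that overlaps an MRE core at -138, and further MRE cores at -72 and, after the start, at 28. Among the windows not printed, Nfe2l2 had an ARE core at -240 and the second window of Txnrd1 had 1 at -92, and the letters were not found in the windows of Keap1 and Nqo1. Of all 32851 RefSeq windows of this length, 12.4% held the ARE core, 25.7% the MRE core and 0.822% the CNC-MAF site. A match describes the letters and does not show that a factor binds there. The lack of a match holds for these windows only, and sequence farther from the starts was not searched.

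Per kb of exon, members differed widely in level in CON-GFP livers. The highest values were those of Mt2 (114 ± 113 CPM per kb, SD, n = 6), Gclc (96.0 ± 32.0) and Mt1 (87.2 ± 66.8), which lay within each other's spread. Gclm followed with 26.2 ± 4.0 and Nfe2l2 with 20.1 ± 2.14 CPM per kb. Srxn1 (15.6 ± 3.48) and Txnrd1 (15.2 ± 1.23) did not differ beyond their spread, and Keap1 (9.13 ± 1.53) and Nqo1 (6.42 ± 1.47) were lowest. In FPC-LIPA livers the order by the lengths used here was different, with Nqo1 at 24.0 ± 12.6 above Mt1 at 13.1 ± 7.95 and Mt2 at 9.55 ± 7.07 CPM per kb. These lengths join the exons of all annotated transcripts, so the level of a gene with long rare exons is understated. For Mt1 the joined length of 1.246 kb is its whole span on the chromosome. Its level per kb is thus understated, and its place in both orders, also against Nqo1, is not settled.

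The question of the first comparison was what the FPC diet did in livers with GFP. Of the 9 members, 6 rose in FPC-GFP against CON-GFP with an adjusted p under 0.05, namely Nfe2l2, Keap1, Nqo1, Gclc, Srxn1 and Txnrd1, where 12.9% of all 14307 tested genes were higher at this threshold. Only Srxn1 was DE, where 4.76% of tested genes were DE and higher and 2.44% DE and lower. No member was lower at an adjusted p under 0.05 (10.9% of tested genes) in edgeR's quasi-likelihood test, none at an unadjusted p under 0.05, and none with DESeq2. In 2 of 9 members, Srxn1 and Txnrd1, every FPC-GFP library was above every CON-GFP library, as in 5.61% of tested genes, and in none was every one below (4.82%). The median log2 fold change was 0.41 over the 9 members and 0.01 over all tested genes.

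**Figure D1:**
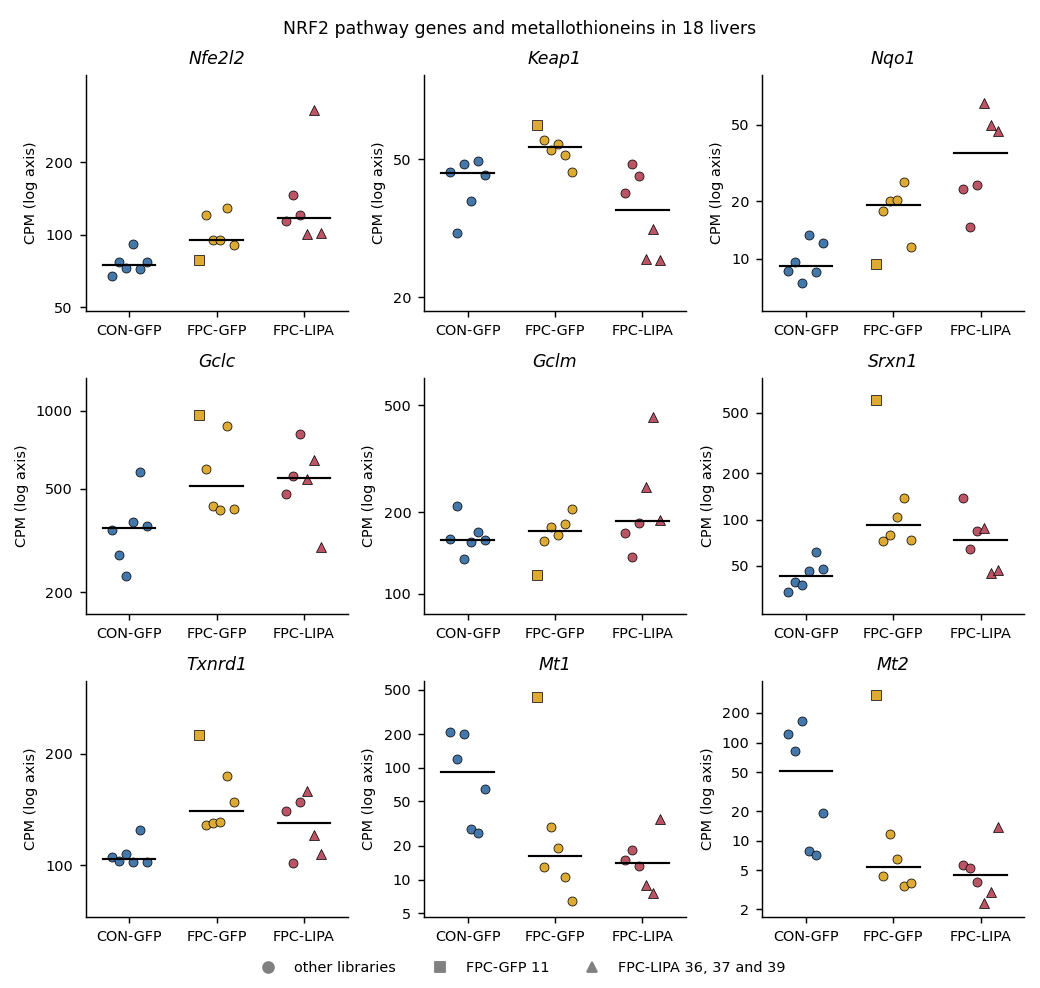
CPM of each member on a log axis in the 18 livers, with 1 point per liver and a line at the median of each group of 6. The square of FPC-GFP 11 is the highest point of Srxn1 (606 CPM), Mt1 (431 CPM) and Mt2 (306 CPM), and the triangles of FPC-LIPA 36, 37 and 39 are the highest points of Nqo1 (46.7 to 65.2 CPM).

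Srxn1 encodes sulfiredoxin, which restores overoxidized peroxiredoxins. It was read at 33.7 (lowest), 42.5 (median) and 61.2 CPM (highest) in CON-GFP and at 72.0, 91.5 and 606 CPM in FPC-GFP. The lowest FPC-GFP liver was above the highest CON-GFP liver, and FPC-GFP 11 was far above the next highest at 138 CPM. The log2 fold change was 2.02 (SE 0.48, adjusted p = 0.00865, edgeR quasi-likelihood test). Without FPC-GFP 11 it was 1.08 (SE 0.19, adjusted p = 0.00181, edgeR), so that Srxn1 was DE in both fits and its size rested on that liver.

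Txnrd1 encodes the cytosolic thioredoxin reductase, a selenoenzyme that keeps thioredoxin reduced. CON-GFP livers were tightly grouped at 102 (lowest), 104 (median) and 125 CPM (highest), and FPC-GFP livers were at 129, 140 and 226 CPM. The groups did not overlap, and FPC-GFP 11 was again highest. Txnrd1 rose by 0.55 on the log2 scale (SE 0.14, adjusted p = 0.0126, edgeR), which is under 2-fold, and by 0.41 (SE 0.11, adjusted p = 0.0179, edgeR) without FPC-GFP 11. With sample sheet numbers from 55 to 68 only it rose by 0.53, and the call was lost (adjusted p = 0.0663, edgeR).

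Nqo1, the NAD(P)H quinone reductase that is widely read as an NRF2 target, was at 7.48 (lowest), 9.14 (median) and 13.4 CPM (highest) in CON-GFP and at 9.43, 19.0 and 25.3 CPM in FPC-GFP. In 4 of 6 FPC-GFP livers it was above every CON-GFP liver, and FPC-GFP 11 was the lowest of its group. The log2 fold change was 0.80 (SE 0.22, adjusted p = 0.0161, edgeR), and 0.93 (SE 0.19, adjusted p = 0.00431, edgeR) without FPC-GFP 11. With all 18 libraries in one fit it was 0.81, and the call was lost (adjusted p = 0.120, edgeR).

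Glutamate-cysteine ligase makes the rate-limiting step of glutathione synthesis, and its catalytic and modifier subunits are encoded by Gclc and Gclm. Gclc was at 231 (lowest), 353 (median) and 581 CPM (highest) in CON-GFP and at 414, 514 and 959 CPM in FPC-GFP, with 3 of 6 FPC-GFP livers above every CON-GFP liver. Its log2 fold change was 0.77 (SE 0.25, adjusted p = 0.0378, edgeR), and 0.60 (adjusted p = 0.0886, edgeR) without FPC-GFP 11, which ends the call. The call was also lost without CON-GFP 1, 2, 3, 6 or 8 or FPC-GFP 12 or 19, with adjusted p from 0.056 to 0.0904 (edgeR). Gclm was at 135, 159 and 211 CPM in CON-GFP and at 118, 171 and 205 CPM in FPC-GFP, and the groups overlapped almost fully. Its log2 fold change was 0.03 (SE 0.14, adjusted p = 0.908, edgeR). The fitted fold change was 1.71 for the catalytic subunit and 1.02 for the modifier, and the difference between these changes was not tested.

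The regulators themselves moved little. Nfe2l2 was at 67.3 (lowest), 74.9 (median) and 91.1 CPM (highest) in CON-GFP and at 78.9, 94.9 and 129 CPM in FPC-GFP, and 4 of 6 FPC-GFP livers were above the highest CON-GFP liver. It rose by 0.41 on the log2 scale (SE 0.13, adjusted p = 0.0293, edgeR), and the adjusted p was between 0.0556 and 0.0737 (edgeR) when CON-GFP 1 or 3 or FPC-GFP 12 or 19 was left out. Keap1, the sensor and brake of the pathway, was at 30.7, 45.5 and 49.3 CPM in CON-GFP and at 45.8, 54.2 and 62.6 CPM in FPC-GFP. Keap1 rose by 0.34 (SE 0.12, adjusted p = 0.0456, edgeR), and the call was lost without FPC-GFP 11 (log2 fold change 0.30, adjusted p = 0.0902, edgeR) and with removal of each library's trend on GC content (0.12, adjusted p = 0.256, edgeR). It was also lost without CON-GFP 1, 2, 6 or 8 or FPC-GFP 12, 13, 16 or 19, with adjusted p from 0.0554 to 0.095 (edgeR). With removal of the trend on gene length, 3 of the 6 members stayed under the threshold (11.9% of tested genes were higher), namely Nqo1, Srxn1 and Txnrd1, and Nfe2l2 had an adjusted p of 0.0579 (edgeR).

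**Figure D2:**
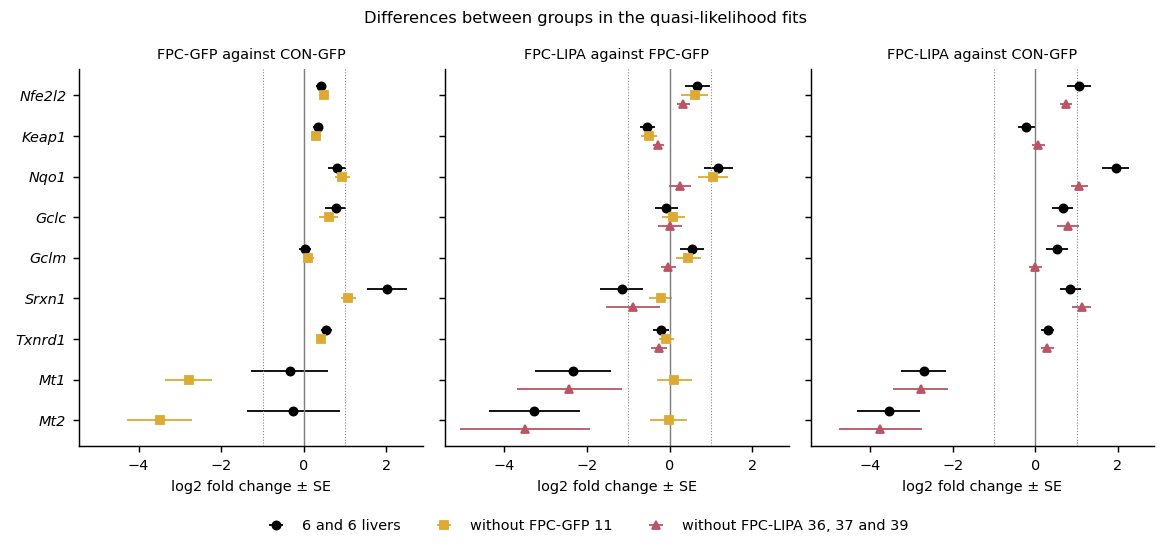
Log2 fold change and SE of each member in the 3 comparisons, with dotted lines at the 2-fold limits, for all 12 livers of a comparison, without FPC-GFP 11 and without FPC-LIPA 36, 37 and 39. Without FPC-GFP 11 the Mt1 and Mt2 points move from near 0 to -2.79 and -3.49 in FPC-GFP against CON-GFP and from -2.33 and -3.27 to near 0 in FPC-LIPA against FPC-GFP.

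The metallothioneins behaved differently from the NRF2 targets. Mt1 was at 211, 119, 203, 28.5, 26.0 and 64.6 CPM in CON-GFP 1, 2, 3, 6, 7 and 8, a wide spread within CON-GFP alone. In FPC-GFP 11 it was at 431 CPM and in FPC-GFP 12, 13, 16, 19 and 20 at 12.8, 29.5, 19.4, 10.5 and 6.46 CPM. A single FPC-GFP liver was thus above every CON-GFP liver, and 4 of the other 5 were below every CON-GFP liver. Mt2 had the same pattern, at 122, 82.8, 165, 7.89, 7.21 and 19.3 CPM in CON-GFP. In FPC-GFP it was at 306 CPM in liver 11 and at 4.32, 11.7, 6.53, 3.44 and 3.70 CPM in livers 12, 13, 16, 19 and 20. Over all 12 livers the log2 fold change was -0.35 for Mt1 (SE 0.92, adjusted p = 0.807, edgeR) and -0.25 for Mt2 (SE 1.12, adjusted p = 0.887, edgeR), with the SE as large as the change or larger.

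Without FPC-GFP 11, both metallothioneins were DE and lower in FPC-GFP, as were 2.18% of the 14437 genes tested in that fit, and they were the 2 members lower at an adjusted p under 0.05 (9.29%). On the other side, 4 members were higher at an adjusted p under 0.05 (11.5%), and Srxn1 was DE (4.83%). The log2 fold change was -2.79 for Mt1 (SE 0.57, adjusted p = 0.00480, edgeR) and -3.49 for Mt2 (SE 0.79, adjusted p = 0.00761, edgeR). Whether FPC-GFP 11 or the other 5 livers represent the diet could not be told from these libraries. Among CON-GFP livers, CON-GFP 1 and 2 had sample sheet numbers of 73 and 80 and the others of 55 to 58, and both CON-GFP 1 and 2 were among the 3 livers with the most Mt1 and Mt2, as was CON-GFP 3 with the number 55. The part of that number in the levels was not tested. With sheet numbers from 55 to 68 only, the log2 fold change was 0.34 for Mt1 and 0.44 for Mt2, and the smaller adjusted p was 0.858 (edgeR).

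FPC-GFP 11 differed from the other FPC-GFP livers in other genes too. Of all 14307 tested genes, 3.66% were at least 2-fold above and 6.16% at most 0.5-fold of the median of the other 5 livers. Among the members, 4 of 9 were at least 2-fold above (Gclc, Srxn1, Mt1 and Mt2) and Nqo1 was 0.469-fold. In Gclc, FPC-GFP 19 was close behind, at 874 against 959 CPM. Mt1 was 33.6-fold and Mt2 71.0-fold above the median of the other 5. Of 10 genes of the glucocorticoid response, 4 were at least 2-fold above and 1 was at most 0.5-fold (Dusp1, 38.7 against a median of 80.2 CPM), with Fkbp5, a chaperone of the glucocorticoid receptor, at 78.8 CPM against a median of 35.9 and Zbtb16 at 23.8 against 5.57 CPM. Of 11 genes of the acute phase and IL-6 response, 3 were at least 2-fold above, among them Stat3 (147 against a median of 68.7 CPM). Of 14 genes of metal and zinc homeostasis, 3 were at least 2-fold above. They were the metal importers Slc39a14 (247 CPM against a median of 123) and Slc39a10 (11.6 against 3.36 CPM) and the metal exporter Slc30a10 (52.4 against 20.6 CPM). For Slc30a10 the highest of the other livers was nearly equal, at 51.8 CPM. Of the 37 tested NRF2 targets outside the members 0 were at least 2-fold above, and 3 of the 15 detoxification genes were at most 0.5-fold, namely Cyp2a5 (0.242-fold), Ugt1a6a (0.384-fold) and Gstm3 (0.399-fold). These list members are named because they passed one of these limits in that liver, and their part in the level of Mt1 and Mt2 was not tested.

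The second comparison asked what LIPA did on the FPC diet. In FPC-LIPA against FPC-GFP, Nqo1 was DE and higher, where 10.3% of the 14620 tested genes were, and Mt2 was DE and lower, where 1.11% were. With Keap1, 2 of 9 members were lower at an adjusted p under 0.05 (6.87% of tested genes) and 1 was higher (14.4%). None of the 9 members separated the groups fully, against 3.36% of tested genes that did so higher and 4.3% lower. The median log2 fold change was -0.21 over the members and 0.04 over all tested genes. None of the 3 calls held without FPC-GFP 11 or without FPC-LIPA 36, 37 and 39. Without FPC-GFP 11, 0 members were called in edgeR, where 7.33% of tested genes were higher and 2.13% lower at an adjusted p under 0.05 and 6.47% and 0.488% were DE. Without the 3 FPC-LIPA livers, 0 were called in edgeR, where 1.11% and 0.112% of tested genes passed the adjusted p and 0.728% and 0.0328% were DE. In the first of these fits Nqo1 and Keap1 had an unadjusted p under 0.05 and in the second Mt2 did. FPC-GFP enters both comparisons, so a high value in FPC-GFP 11 acts on them with opposite signs.

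Nqo1 was at 14.7 (lowest), 35.4 (median) and 65.2 CPM (highest) in FPC-LIPA, after 9.43 to 25.3 CPM in FPC-GFP. FPC-LIPA 36, 37 and 39 were at 65.2, 49.96 and 46.7 CPM, above every FPC-GFP liver, while FPC-LIPA 31, 33 and 34 were at 23.2, 14.7 and 24.2 CPM, within the FPC-GFP range. The log2 fold change was 1.18 (SE 0.35, adjusted p = 0.0326, edgeR). Without FPC-LIPA 36, 37 and 39 it was 0.26 (SE 0.27, adjusted p = 0.642, edgeR). Without FPC-GFP 11 it was 1.05 (adjusted p = 0.070, edgeR), and with the trend on gene length removed 0.86 (adjusted p = 0.0576, edgeR). The adjusted p was also between 0.0534 and 0.0865 (edgeR) when FPC-GFP 12, 13, 16 or 20 or FPC-LIPA 36, 37 or 39 was left out.

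Keap1 was at 25.5 (lowest), 35.7 (median) and 48.5 CPM (highest) in FPC-LIPA, and 5 of 6 FPC-LIPA livers were below every FPC-GFP liver. The same 3 livers that were high in Nqo1 were lowest in Keap1, with 25.8, 31.4 and 25.5 CPM in FPC-LIPA 36, 37 and 39. Keap1 fell by 0.54 on the log2 scale (SE 0.18, adjusted p = 0.0443, edgeR). Without these 3 livers the log2 fold change was -0.27 (adjusted p = 0.274, edgeR), and with the GC trend removed -0.20 (adjusted p = 0.355, edgeR). The call was lost when any 1 of the 6 FPC-GFP livers or FPC-LIPA 31, 36, 37 or 39 was left out, with adjusted p from 0.0535 to 0.0955 (edgeR).

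**Figure D3:**
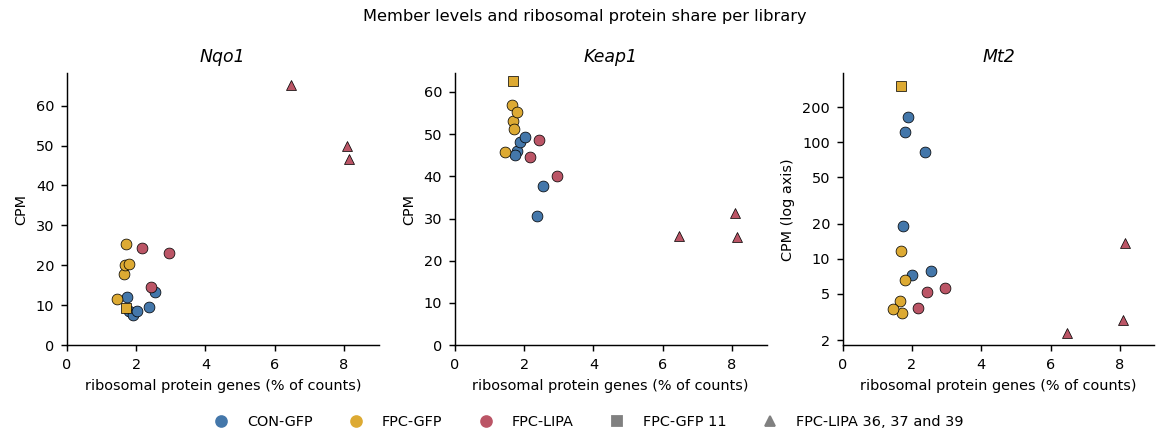
CPM of Nqo1 and Keap1 (linear axes) and of Mt2 (log axis) against the percent of counts on ribosomal protein genes, with 1 point per library. FPC-LIPA 36, 37 and 39, at 6.48% to 8.15%, hold the 3 highest Nqo1 values. Mt2 is at 2.32 CPM in FPC-LIPA 36 and at 3.01 CPM in FPC-LIPA 37. In FPC-LIPA 39 it is at 13.7 CPM, the highest value of that group.

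Across the 18 livers, deviations of log2 CPM from the group means followed the ribosomal protein share with a Pearson r of 0.74 for Nqo1 (Spearman rho 0.73), -0.79 for Keap1 (rho -0.75) and 0.60 for Gclm (rho 0.47). For Srxn1, Txnrd1, Mt1 and Mt2 the r lay between -0.22 and -0.01. These are descriptions over 18 libraries, in each of which all genes share that library's depth and composition, and the part of RNA composition in the Nqo1 and Keap1 levels was not tested.

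Mt2 was at 2.32 (lowest), 4.5 (median) and 13.7 CPM (highest) in FPC-LIPA, and Mt1 at 7.54, 14.1 and 34.9 CPM. Apart from FPC-GFP 11, the ranges of the FPC-GFP and FPC-LIPA livers overlapped for both genes. The log2 fold change was -3.27 for Mt2 (SE 1.11, adjusted p = 0.0484, edgeR) and -2.33 for Mt1 (SE 0.92, adjusted p = 0.0767, edgeR). Without FPC-GFP 11 the values were -0.02 (SE 0.45, adjusted p = 0.979, edgeR) and 0.12 (SE 0.41, adjusted p = 0.856, edgeR). The Mt2 call was also lost when any of FPC-GFP 12, 13, 16 and 20 and FPC-LIPA 31, 34, 36, 37 and 39 was left out, with adjusted p from 0.0526 to 0.102 (edgeR). DESeq2 gave no p and no adjusted p for Mt1, Mt2 and Srxn1 in this comparison, so it did not test them.

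Srxn1 was at 44.7 (lowest), 73.9 (median) and 138 CPM (highest) in FPC-LIPA, and the difference was -1.16 on the log2 scale (SE 0.51, adjusted p = 0.106, edgeR) and -0.22 (SE 0.28, adjusted p = 0.598, edgeR) without FPC-GFP 11. Txnrd1, at 101, 131 and 159 CPM, differed by -0.21 on the log2 scale (SE 0.19, adjusted p = 0.415, edgeR). Gclc, at 298, 551 and 815 CPM, had one of -0.09 (SE 0.28, adjusted p = 0.836, edgeR). None of these 3 enzymes passed the threshold, and in each the FPC-LIPA range overlapped that of FPC-GFP.

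FPC-LIPA 37 was extreme for Nfe2l2 and Gclm. Nfe2l2 was at 332 CPM in it and at 101 to 146 CPM in the other 5 FPC-LIPA livers. The change was 0.67 on the log2 scale (SE 0.30, adjusted p = 0.110, edgeR), and 0.23 (SE 0.17, adjusted p = 0.346, edgeR) without that liver. Gclm was at 452 CPM in FPC-LIPA 37 and at 137 to 248 CPM in the others, which gave 0.54 on the log2 scale (SE 0.29, adjusted p = 0.169, edgeR), and 0.17 (adjusted p = 0.543, edgeR) without that liver.

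FPC-LIPA differed from CON-GFP in both diet and vector, a contrast that the study's design does not name and whose effects cannot be told apart here. It uses the CON-GFP and FPC-LIPA libraries that the other comparisons use, and it is free of FPC-GFP 11. Nfe2l2 and Nqo1 were DE and higher (11.8% of 14433 tested genes) and Mt1 and Mt2 DE and lower (3.25%). With Srxn1, 3 of 9 members were higher at an adjusted p under 0.05 (14.7% of tested genes), and the 2 metallothioneins were lower (8.2%). In 2 of 9 members, Nfe2l2 and Nqo1, every FPC-LIPA liver was above every CON-GFP liver, as in 5.58% of tested genes, and in none was every one below (5.56%). Without FPC-LIPA 36, 37 and 39, Nqo1 and Srxn1 were DE and higher (8.8% of tested genes) and Mt1 and Mt2 DE and lower (2.6%), and at an adjusted p under 0.05 alone 4 members were higher (11.7%) and 2 lower (6.33%). The median log2 fold change was 0.52 over the members and 0.04 over all tested genes.

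The log2 fold change of Nqo1 was 1.95 (SE 0.33, adjusted p = 0.000941, edgeR), and 1.07 (SE 0.21, adjusted p = 0.00446, edgeR) without FPC-LIPA 36, 37 and 39, DE in both fits. Nfe2l2 had 1.05 (SE 0.29, adjusted p = 0.0181, edgeR), and 0.63 (SE 0.15, adjusted p = 0.0111, edgeR) without FPC-LIPA 37, which is under 2-fold. Srxn1 rose by 0.84 (SE 0.25, adjusted p = 0.0280, edgeR), and without FPC-LIPA 31 the value was 0.61 (adjusted p = 0.0638, edgeR). Its adjusted p was between 0.0504 and 0.0712 (edgeR) without CON-GFP 1, 2, 3 or 8 or FPC-LIPA 36. Without FPC-LIPA 36, 37 and 39, Srxn1 had 1.13 (SE 0.23, adjusted p = 0.00525, edgeR) and was DE.

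Mt1 fell by 2.70 on the log2 scale (SE 0.55, adjusted p = 0.00320, edgeR) and Mt2 by 3.55 (SE 0.76, adjusted p = 0.00464, edgeR). For both genes, 5 of 6 FPC-LIPA livers were below every CON-GFP liver, and the exception was FPC-LIPA 39. Over each liver left out in turn and the other settings, the log2 fold change stayed between -3.07 and -2.12 for Mt1 and between -4.04 and -2.99 for Mt2. The highest adjusted p were 0.0429 for Mt1 and 0.0547 for Mt2 (edgeR), both with sheet numbers from 55 to 68 only. Keap1 (-0.21), Gclc (0.66), Gclm (0.52) and Txnrd1 (0.31) had adjusted p from 0.0772 to 0.432 (edgeR).

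Mt1 and Mt2 moved together from liver to liver. The Pearson r of their deviations from the group means was 0.98 over 18 livers (Spearman rho 0.96), 0.98 without the 2 livers farthest from the median of Mt1, and 0.95 without FPC-GFP 11. Srxn1 and Txnrd1 had a Pearson r of 0.82 (rho 0.75), and 0.67 without FPC-GFP 11. Gclc had an r of 0.64 with Txnrd1 and 0.57 with Srxn1. Over the 10 pairs of the 5 target enzymes the median r was only -0.05, since Nqo1 and Gclm followed each other (0.60) but neither followed Srxn1 (-0.33 and -0.45). Without FPC-GFP 11 the r was 0.54 for Nqo1 with Gclm, -0.04 for Nqo1 with Srxn1 and -0.32 for Gclm with Srxn1. Nfe2l2 and Nqo1, the regulator and its best known target, had an r of 0.26. Keap1 and Nqo1 had an r of -0.69 (rho -0.66). Genes of a library share its depth and composition, so these values describe the 18 livers and carry no p.

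**Figure D4:**
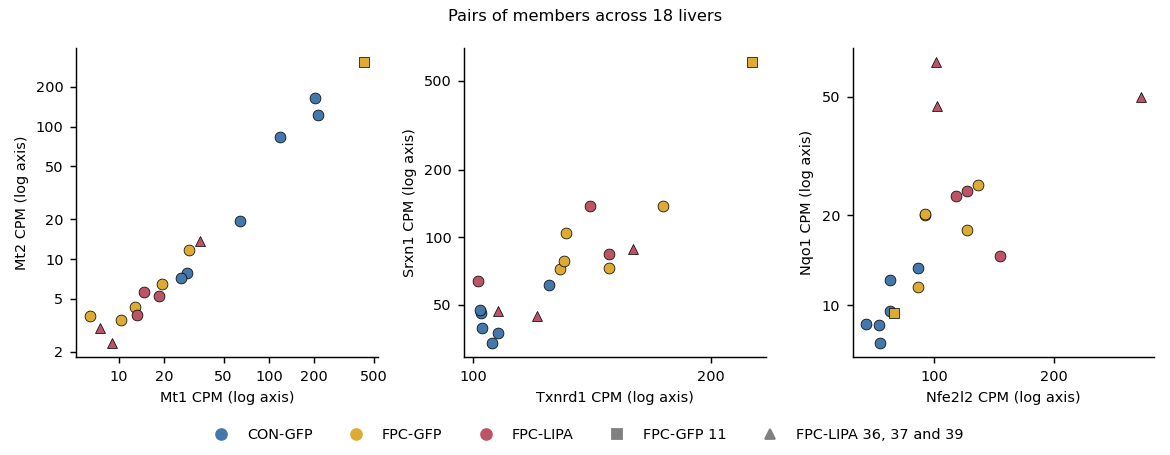
CPM of Mt2 against Mt1, Srxn1 against Txnrd1 and Nqo1 against Nfe2l2 in the 18 livers, with 1 point per liver on log axes. Mt2 goes up with Mt1 over the range of Mt1 from 6.46 to 431 CPM, and Srxn1 and Txnrd1 are both highest in FPC-GFP 11.

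The genes with the most similar pattern were sought among 7803 genes with a mean of at least 10 CPM, by the Pearson r of within-group deviations over 18 livers. For Mt2 they were Mt1 (0.98), Angptl4 (0.86), Chd9 (0.85), Map3k5 (0.84) and Klhl25 (0.84). Angptl4, an inhibitor of lipoprotein lipase that is induced by fasting, was at 281 ± 89.4 CPM in CON-GFP, 168 ± 38.7 in FPC-GFP and 127 ± 16.8 in FPC-LIPA (SD, n = 6). Without FPC-GFP 11 its r with Mt2 was 0.85. For Nqo1 they were Zswim7 (0.92), Pigp (0.89), Cd59a (0.89), Snx2 (0.88) and Rida (0.88), and each of these had its highest group mean in FPC-LIPA. In none of them was the FPC-GFP mean above the CON-GFP mean (Cd59a, 84.5 ± 13.6 against 111 ± 16.4 CPM), while that of Nqo1 was (17.4 ± 5.92 against 9.97 ± 2.28 CPM).

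Beyond the members, lists of other NRF2 targets were followed in the diet comparison. The lists were chosen with earlier results of these data known, and the part of NRF2 in their changes was not tested. The list of detoxification genes held 15 genes, all tested, of which 11 rose with an adjusted p under 0.05 and 7 were DE, with none lower, where 12.9% of all tested genes were higher and 4.76% DE and higher. Gstm1, the glutathione S-transferase with the highest level of the list, rose from 850 ± 268 to 3228 ± 1107 CPM (SD, n = 6), or by 1.93 on the log2 scale (SE 0.24, adjusted p = 0.000189, edgeR). The carbonyl reductase Cbr3 had a log2 fold change of 3.55 (SE 0.48), Gstm3 of 3.03 (SE 0.46) and Gsta1 of 2.85 (SE 0.39). In all 4 genes every FPC-GFP liver was above every CON-GFP liver (5.61% of all tested genes). These 4 are the DE genes of the list with the largest fold change in this comparison. Their separation was thus nearly fixed by the choice and says nothing more about the list. Paralogs of the glutathione S-transferase family share sequence, and reads could have been split among them. The median log2 fold change of the list was 0.91, against 0.01 over all tested genes.

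The shares of all tested genes given for the detoxification list hold for the lists that follow. Of 6 genes that supply NADPH, 5 rose and 2 were DE, namely Me1, the malic enzyme (243 ± 65.2 to 597 ± 126 CPM, log2 fold change 1.30, SE 0.19), and Pgd of the pentose phosphate pathway (1.02, SE 0.15). Idh1, with the highest mean CPM of the list over all 18 livers, had a log2 fold change of 0.03 (SE 0.10). Of 4 efflux transporters, 2 rose, with Abcc4 DE (1.98 ± 0.504 to 14.2 ± 9.33 CPM, log2 fold change 2.83, SE 0.38), and Abcc2, highest in mean CPM, had equal means within the SD (462 ± 38.0 and 461 ± 82.2 CPM). Of 7 tested genes of glutathione and thioredoxin, 2 rose, and Prdx1, highest in mean CPM, had -0.07 (SE 0.12). Of 5 heme and iron genes, 2 rose, and the ferritin light chain gene Ftl1 had 0.07 (SE 0.11). Over all NRF2 target lists, 22 of 37 tested genes were higher and 0 lower at an adjusted p under 0.05 in edgeR, with a median of 0.70, and these counts were also 22 and 0 without FPC-GFP 11. Of 11 regulators of the pathway, 2 rose, a share near the 12.9% of all tested genes, among them Sqstm1, which encodes the KEAP1-binding autophagy receptor p62 (288 ± 61.01 to 468 ± 109 CPM, log2 fold change 0.71, SE 0.17, adjusted p = 0.00898, edgeR).

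**Figure D5:**
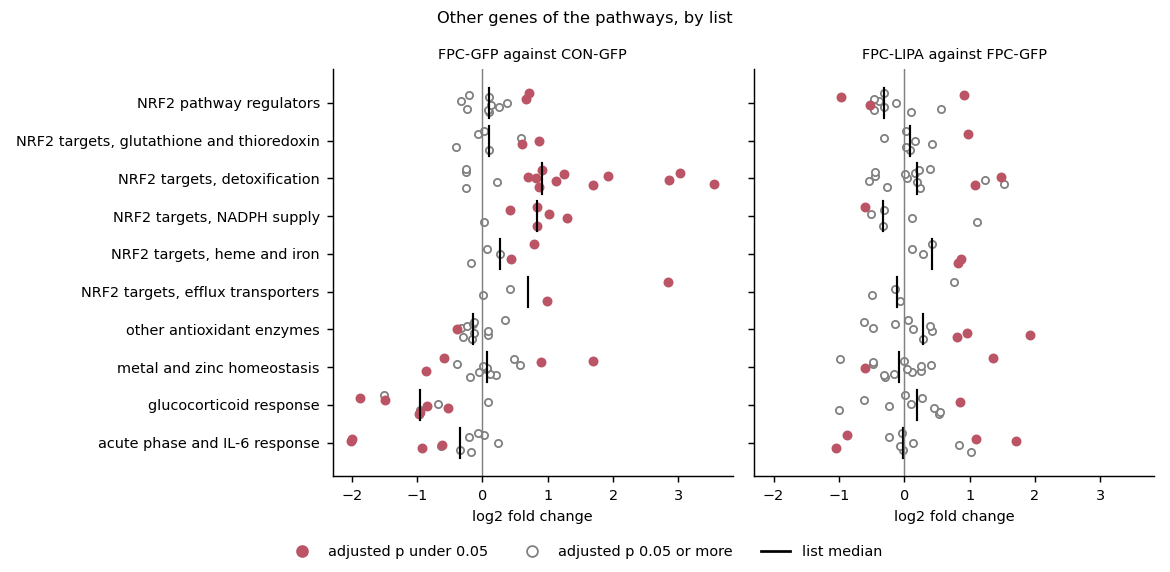
Log2 fold changes of the tested genes of 10 pathway lists, with 1 point per gene, filled where the adjusted p was under 0.05, and a bar at each list's median, for the diet comparison (left) and the LIPA comparison (right). Detoxification and NADPH genes lie mostly to the right of 0 with the diet (medians 0.91 and 0.83) and around 0 with LIPA (medians 0.19 and -0.32).

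Glucocorticoid and acute phase genes, whose signals also act on metallothionein genes, included none that rose with the diet. Of 10 genes of the glucocorticoid response, 6 fell in FPC-GFP against CON-GFP with an adjusted p under 0.05 (10.9% of all tested genes were lower), and the median log2 fold change was -0.96. Tsc22d3, the glucocorticoid-induced leucine zipper, fell from 215 ± 19.6 to 58.3 ± 24.3 CPM (log2 fold change -1.88, SE 0.22, adjusted p = 0.000123, edgeR) without overlap between the groups, and the tyrosine aminotransferase gene Tat fell by 1.48 on the log2 scale (SE 0.35). Pck1, highest in mean CPM of this list, fell by 0.85 (SE 0.26, adjusted p = 0.0304, edgeR). Of 11 acute phase and IL-6 genes, 4 fell (against the same 10.9%), among them Saa1 (-2.01, SE 0.55) and Saa2 (-2.0, SE 0.65), and haptoglobin (Hp) had -0.34 (SE 0.17). The mean log2 CPM of the glucocorticoid list was 7.15, 6.73, 6.67, 6.20, 5.76 and 6.52 in CON-GFP 1, 2, 3, 6, 7 and 8. It was 5.97 in FPC-GFP 11 and 5.55, 5.56, 5.32, 5.23 and 5.75 in FPC-GFP 12, 13, 16, 19 and 20, and in FPC-LIPA it was highest in FPC-LIPA 39, at 6.42. In each group the single liver with the most Mt1 also had the highest value of that list, but FPC-GFP 20, with the least Mt1 of its group, had the second highest. The mean log2 CPM of the acute phase list was also highest in FPC-GFP 11 (6.60) and in FPC-LIPA 39 (6.39) within their groups, and in CON-GFP it was highest in CON-GFP 3 (7.72). The FPC-LIPA values of that list ran only from 6.20 to 6.39, and FPC-LIPA 37, with the least Mt1 of its group, was second highest (6.35). CON-GFP 7, also with the least Mt1 of its group, was second highest in CON-GFP (6.63), above CON-GFP 1 with the most Mt1 (6.55). The part of these lists in the metallothionein levels was not tested.

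Of 14 tested genes of metal and zinc homeostasis, 2 rose and 2 fell with the diet, and the median was 0.06. The zinc importer Slc39a5 was DE (1.95 ± 0.924 to 6.43 ± 3.16 CPM, log2 fold change 1.70, SE 0.38), and ceruloplasmin (Cp), highest in mean CPM, had 0.21 (SE 0.11). Of 11 other antioxidant enzymes 1 fell, and catalase (Cat) had -0.15 (SE 0.13).

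In FPC-LIPA against FPC-GFP, 5 of the 37 tested NRF2 targets outside the members were higher and 1 lower at an adjusted p under 0.05, with a median of 0.12, where 14.4% of all tested genes were higher and 6.87% lower. Without FPC-GFP 11 the counts were 1 higher and 0 lower in edgeR. The DE genes were Gsta4 (77.7 ± 24.6 to 203 ± 112 CPM, log2 fold change 1.48, SE 0.36, adjusted p = 0.0187, edgeR) and Cbr1 (1.08, SE 0.34, adjusted p = 0.0399, edgeR). Among the genes that led each target list in mean CPM, Prdx1 had 0.98 (SE 0.33, adjusted p = 0.0461, edgeR), Idh1 1.11 (adjusted p = 0.0504), Gstm1 -0.45 (SE 0.35), Abcc2 -0.49 (SE 0.22) and Ftl1 0.12 (SE 0.17), and the regulator Sqstm1 had -0.31 (SE 0.23). Outside the NRF2 lists, Gpx4, the phospholipid peroxide reductase, rose from 513 ± 84.2 to 1835 ± 1118 CPM (log2 fold change 1.93, SE 0.39, adjusted p = 0.0124, edgeR), and Cat had 0.29 (SE 0.25). The metal importer Slc39a8 rose by 1.35 (SE 0.31), and Cp had -0.31 (SE 0.18). Saa1 rose by 1.71 (SE 0.35) and Saa2 by 1.10 (SE 0.31), Il6ra fell by 1.05 (SE 0.35), and Hp had -0.02 (SE 0.20) and Pck1 -0.24 (SE 0.26). Without FPC-LIPA 36, 37 and 39, none of the tested genes of these 10 lists had an adjusted p under 0.05 in edgeR; Gpx4 then had a log2 fold change of 0.72 (adjusted p = 0.0651, edgeR). In FPC-LIPA against CON-GFP, 19 of the 37 NRF2 targets were higher and 0 lower at an adjusted p under 0.05 (edgeR), and 13 were DE and higher, where 14.7% of all tested genes were higher, 8.2% lower and 11.8% DE and higher.

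Cell markers moved with the groups in these whole livers, where more cells of a type and more RNA per cell cannot be told apart. Of 7 Kupffer cell markers, 7 rose with the diet and 3 with LIPA, and their sum ranged from 117 to 250 CPM in CON-GFP, 345 to 614 in FPC-GFP and 422 to 948 in FPC-LIPA. Of 7 monocyte and macrophage markers, 3 rose with the diet and 4 with LIPA, and their sum ranged from 40.6 to 96.2, 101 to 309 and 413 to 718 CPM in the same order. Of 7 hepatocyte markers, 2 fell in each of these comparisons, with sums of 73235 to 106532, 62551 to 89095 and 49045 to 76234 CPM. No marker of these 3 lists was at 0. Stellate cell markers rose in 3 of 7 with the diet and 3 of 7 with LIPA, endothelial markers in 3 of 6 and 0 of 6, and cholangiocyte markers in 1 of 5 and 0 of 5 tested. The stellate list went both ways with LIPA, with a median log2 fold change of -0.13, against 0.23 with the diet. These counts are at an adjusted p under 0.05 (edgeR). Of all tested genes, 12.9% were higher and 10.9% lower at this threshold with the diet, and 14.4% and 6.87% with LIPA. Of the neutrophil markers 2 of 3 tested rose with LIPA and of the lymphocyte markers 2 of 6 tested, and none of either passed the threshold with the diet. Neutrophil sums were from 1.72 to 6.11 CPM in the GFP livers and from 7.56 to 19.2 CPM in FPC-LIPA, and 1 neutrophil marker was at 0 in CON-GFP. FPC-LIPA 37, the liver highest in Nfe2l2 and Gclm, had a stellate sum of 975 CPM, against 313 to 467 in the other FPC-LIPA livers, and a cholangiocyte sum of 190.5 CPM, against 36.6 to 106. The part of cell composition in the member levels was not tested.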

How the data were processed

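RNA was sequenced from 18 livers, 6 per group. The deposited raw counts per gene were made by the authors, per the labels and methods, with FastQC, HISAT2 2.1.0 and Subread on mm10. The annotation version, the strand setting and the handling of reads with several matches are not given in the sources used here, and which of an unstranded and a stranded kit each library had is not given either, so whether reads of overlapping and antisense genes were told apart is not known. Of the table, 5 columns of counts outside these samples were not used. Genes were filtered with filterByExpr, scaled by TMM and tested with edgeR 4.0.16 (quasi-likelihood test, Benjamini-Hochberg adjustment, R 4.3.3) in the 12 libraries of each comparison. DE genes passed an adjusted p of 0.05 and a 2-fold limit. CPM are TMM-scaled over 18 libraries, and log2 CPM used a prior count of 2. SEs of log2 fold changes were taken from the F statistics. Positions and exon lengths are from GENCODE M21 (55227 of 55487 genes found). Python 3.11.15 with pandas 2.3.3 made the summaries. Alternatives were DESeq2 1.42.0, other scalings and filters, trends on GC content and length, the sheet numbers and left-out libraries. The fits were tested on simulated data. The members and gene lists were chosen with earlier results of these data known. Named were all members, the gene with the highest mean CPM of each list, its DE genes in the first 2 comparisons (at most the 4 with the largest fold change), and the 5 genes of at least 10 CPM most correlated with Nqo1 and with Mt2. Genes named for their level in FPC-GFP 11 were chosen after their values were seen. The labels do not say more of the replicates than that they are separate mice, and no 2 libraries agreed within sampling noise (smallest chi-square per degree of freedom 15.4 within a group).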

Additional observations from a re-analysis of the deposited data

Results flagged for a closer look

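In 7 of 27 sets of 6 livers (9 genes in 3 groups), 1 liver lay far from the rest by Dixon's criterion at the 95% level. Among 14818 genes, 7.6% in CON-GFP, 9.97% in FPC-GFP and 7.85% in FPC-LIPA met it.

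In FPC-GFP 11, Srxn1 was at 606 CPM with 72.0 to 138 in the other 5 livers of the group, Mt1 at 431 CPM with 6.46 to 29.5, and Mt2 at 306 CPM with 3.44 to 11.7. This liver stood apart in 5.5% of all genes. FPC-LIPA 37 held 332 CPM of Nfe2l2, with 101 to 146 in the other 5 livers, and 452 CPM of Gclm, with 137 to 248, and it stood apart in 4.41% of all genes. In FPC-LIPA 39, Mt2 was at 13.7 CPM, with 2.32 to 5.67 in the others. In CON-GFP 7, Txnrd1 was at 125 CPM, with 102 to 107 in the others. These last livers stood apart in 0.891% and 0.938% of all genes.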

How the results depend on the processing

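Of the 9 members, 1 was DE and higher with the FPC diet, and 2 were with library size alone. In FPC-LIPA against FPC-GFP, the count of members DE and higher was 0 in place of 1 with library size alone, sheet numbers 55 to 68, the length trend removed, an adjusted p under 0.01, without FPC-LIPA 36, 37 and 39, and without these and FPC-GFP 11. The count of members DE and lower was 0 in place of 1 under the same settings except the length trend. It was also 0 with upper-quartile factors or the GC trend removed, and 2 with all 18 libraries in one fit. DESeq2 gave 0 as well, but it gave no p for Mt2, so its 0 is no test of that gene. In FPC-LIPA against CON-GFP, 1 in place of 2 members was DE and higher without a filter, with sheet numbers 55 to 68, the GC trend removed or an adjusted p under 0.01, and 1 was DE and lower with the sheet numbers.

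Members higher at an adjusted p under 0.05 with the diet numbered 6, and 2 with all 18 libraries in one fit or sheet numbers 55 to 68, 3 with the length trend removed and 1 at an adjusted p under 0.01. Keap1 alone lost its call with RLE size factors, no filter or the GC trend removed, with adjusted p of 0.0534, 0.0825 and 0.256 (edgeR). In FPC-LIPA against FPC-GFP the count higher at this threshold went from 1 to 0 under the settings given above for DE and higher. The count lower went from 2 to 3 with all 18 libraries in one fit. It went to 1 with no filter, the length trend removed or DESeq2, which gave no p for Mt2. It went to 0 with upper-quartile factors, library size alone, sheet numbers, the GC trend, an adjusted p under 0.01 and both sets of left-out livers. In FPC-LIPA against CON-GFP, 1 was higher with sheet numbers or an adjusted p under 0.01, and 1 lower with sheet numbers. The causes were not tested.

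With 1 liver left out in turn, members DE and lower ranged from 0 to 2 with the diet and 0 to 1 with LIPA, and those DE and higher from 0 to 1 with LIPA and 1 to 2 in FPC-LIPA against CON-GFP. Members higher at an adjusted p under 0.05 ranged from 3 to 6 with the diet and 0 to 1 with LIPA, and those lower from 0 to 2 in both.

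The sign changed for genes that were not called in that comparison. With the diet, Gclm was -0.048 and Mt2 0.043 with the length trend removed, and Mt1 was 0.34 and Mt2 0.44 with the sheet numbers. In FPC-LIPA against FPC-GFP without FPC-LIPA 36, 37 and 39, Gclc was 0.019 and Gclm -0.034, and without FPC-GFP 11 as well Gclc was 0.19, Gclm -0.12, Srxn1 0.043 and Mt1 0.0093. In FPC-LIPA against CON-GFP without the 3 livers, Gclm was -0.00092 and Keap1 0.073. With 1 liver left out, Gclm ranged from -0.052 to 0.12 and Mt2 from -3.49 to 0.23 with the diet, and Gclc from -0.22 to 0.087 and Mt1 from -2.71 to 0.12 with LIPA.

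Library size alone moved the median log2 fold change of all genes by 0.20 with the diet and by -0.13 with LIPA. The robust test and the joint removal of FPC-GFP 11 and the 3 FPC-LIPA livers were chosen after seeing the data. No paired analysis was possible because the mouse numbers are not shared between groups.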
